A study of Mus musculus with 12 samples.

Results

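The 3 Gadd45 genes (Gadd45a, Gadd45b and Gadd45g) and 3 immediate early response genes (Ier2, Ier3 and Ier5) were followed across 12 polyA RNA-seq libraries of mouse osteoblastic cells. The members were taken by gene symbol, and all 6 were found, each as 1 of the 25124 entries of the deposited table. All 6 passed the minimum level for testing, a mean log2 value of at least 4. The cells were MC3T3-E1, a mouse line of bone-forming precursors kept in alpha-MEM with serum. The 4 groups of 3 libraries compared were cells given TNFa and then BMP4 (TNFa+BMP4), cells given TNFa alone, cells given BMP4 alone, and untreated cells. Per the treatment protocol, every group spent 30 min in 2.5% serum, TNFa was given at 10 ng/mL for 30 min, and BMP4 followed at 10 ng/mL for 3 h. The sample characteristics instead give 3 h for each factor, so how long TNFa was present is left undecided by the labels. If this time differed between groups, comparisons with the TNFa libraries would hold time as well as factor. Time and factor could then not be told apart. All groups are 1 cell line, and nothing in the labels says that replicates were separate cultures, so each p-value reflects spread among these libraries, which may be technical.

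Gadd45 proteins are small, mostly nuclear stress sensors that bind the p38 and JNK kinase activator Map3k4, cyclin-dependent kinase 1, PCNA and the cell-cycle inhibitor p21, and take part in growth arrest, repair and DNA demethylation. Gadd45a is a classical p53 target, Gadd45b was first known as a myeloid differentiation gene and is induced by TGF-beta family ligands and by NF-kB, and Gadd45g is induced by cytokines. The Ier genes are short, rapidly induced genes. Ier3 encodes a membrane-associated protein that modulates cell survival under NF-kB, Ier2 a nuclear protein, and Ier5 a nuclear regulator of the heat-shock factor Hsf1. The title of the series asks about Smad4 acting with p65, an NF-kB subunit, in BMP-mediated protection from death under inflammation.

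The library columns hold log2 values made by the authors that are not divided by transcript length. Tag totals per library ran from 13737314 to 20579256, the highest being TNFa+BMP4 replicate 2. Batch 1 holds replicate 1 of every group and batch 2 holds replicates 2 and 3. Levels of 7541 of the 11765 tested genes differed between the batches, so each change was adjusted for batch (limma, p-values adjusted by Benjamini-Hochberg over all genes tested). In the check of the labels, BMP4 libraries had higher Id1 (1.66 ± 0.08, log2 fold change ± SE) and Smad6 (1.30 ± 0.10), and TNFa libraries had higher Nfkbia (2.60 ± 0.13) and Tnfaip3 (2.52 ± 0.11). Of 10 osteoblast-lineage markers 7 were above the minimum level, Col1a1 and Runx2 among them, while Alpl, Bglap and Ibsp were below it. Of 7 macrophage and leukocyte markers 3 were above the minimum level, Cd14 (mean log2 value 5.91), Lyz2 (4.71) and Cd68 (4.49), with Adgre1 at 0 throughout. For each marker list, log2 values were turned back to linear levels, summed without genes at 0 throughout, and logged again. By this sum the macrophage and leukocyte markers ran from 6.86 to 6.91 in TNFa+BMP4 and 6.85 to 6.90 in TNFa libraries. The sums were 6.77 to 6.87 in BMP4 and 6.81 to 6.93 in untreated libraries. Summed adipocyte markers stayed at -0.54 in all 4 groups, and 0 of the 5 listed were above the minimum level. Of 8 endothelial and muscle markers 2 were above the minimum level, Pecam1 (4.95) and Acta1 (4.25). Endothelial and muscle markers summed to 5.99 to 6.11 in TNFa+BMP4, 5.77 to 5.96 in TNFa, 5.89 to 6.08 in BMP4 and 5.83 to 6.03 in untreated libraries. Their part in the results was not tested.

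The 3 Gadd45 transcripts each have 4 exons in the GENCODE annotation of the same mouse build (mm10, GRCm38), Ier3 has 2, and Ier2 and Ier5 have 1. In the deposited table Gadd45b (NM_008655) lies on chromosome 10 from 80930091 to 80932204, Gadd45g (NM_011817) on chromosome 13 from 51846675 to 51848474, and Gadd45a (NM_007836) on chromosome 6 from 67035096 to 67037407. Ier3 (NM_133662) lies on chromosome 17 from 35821713 to 35822911, Ier2 (NM_010499) on chromosome 8 from 84661331 to 84662852, and Ier5 (NM_010500) on chromosome 1 from 155096367 to 155099636. An entry on the opposite strand, E230016M11Rik, overlaps Gadd45a and had log2 values from 5.83 to 6.44. The sources used here do not say whether counting used strand, so reads of the overlap cannot be assigned with certainty. The gene Flot1 starts 319 bases after the annotated end of Ier3.

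The promoters of the BMP4-responsive pair Gadd45b and Gadd45g and of Ier3, which responded to both factors, are shown because these genes carry the main differences. Each sequence is the 250 bases before the transcript start from RefSeq (GRCm38.p6), read 5′ to 3′ on the gene's strand.

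Gadd45b, chr10:80929841-80930090, plus strand: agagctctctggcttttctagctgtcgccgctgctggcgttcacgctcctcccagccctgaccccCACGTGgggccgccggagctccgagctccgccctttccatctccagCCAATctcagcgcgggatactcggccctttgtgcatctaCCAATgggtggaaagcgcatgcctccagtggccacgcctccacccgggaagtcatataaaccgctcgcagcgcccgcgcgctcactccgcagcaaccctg

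Gadd45g, chr13:51846425-51846674, plus strand: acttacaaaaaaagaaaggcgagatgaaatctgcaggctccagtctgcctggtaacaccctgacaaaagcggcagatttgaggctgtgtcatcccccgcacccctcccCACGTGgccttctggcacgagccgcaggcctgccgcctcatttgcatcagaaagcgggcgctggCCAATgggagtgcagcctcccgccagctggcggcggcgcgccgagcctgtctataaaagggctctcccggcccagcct

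Ier3, chr17:35821463-35821712, plus strand: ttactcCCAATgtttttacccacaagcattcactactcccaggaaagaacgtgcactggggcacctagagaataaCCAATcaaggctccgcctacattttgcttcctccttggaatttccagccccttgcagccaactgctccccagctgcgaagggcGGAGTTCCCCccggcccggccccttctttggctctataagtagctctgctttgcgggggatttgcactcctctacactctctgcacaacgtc

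Capitals mark CACGTG (a palindromic E-box), CCAAT and, in Ier3, a match to the kappaB consensus, the sequence class bound by NF-kB. The kappaB match in Ier3 reads on the strand opposite to the one printed. Motifs were searched on both strands from 250 bases before to 50 bases after the start, in the 5 members with a RefSeq promoter entry (not Ier2) and in 32817 promoters of the same length. The kappaB consensus was found in Ier3 alone of the 5, from -92 to -83 relative to the start, and in 4.5% of all promoters. CACGTG was found in Gadd45b (-185 to -180) and Gadd45g (-142 to -137) and in 7.15% of promoters. CCAAT was found in all 5 on one strand or the other and in 37.4% of promoters. These last 2 motifs were chosen after the sequences were seen. The CArG box, TGACGTCA, TGAGTCA, the GC-rich Smad element GGCGCC and the Smad palindrome GTCTAGAC were in 1.63%, 1.79%, 5.2%, 11.9% and 0.213% of promoters, and none of the 5 windows held their letters. These matches describe the letters and are not sites of binding.

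Gadd45b was the member most raised by BMP4, with or without TNFa. Its log2 values were 12.02, 11.30 and 11.38 in the TNFa+BMP4 libraries (replicates 1 to 3), 10.06, 9.75 and 9.63 in TNFa, 11.92, 11.41 and 11.46 in BMP4, and 9.80, 9.50 and 9.69 in untreated. Every library given BMP4 lay above every library not given it, and the TNFa and untreated libraries overlapped. BMP4 raised it by 1.93 ± 0.08 alone, a 3.82-fold change (adjusted p = 2.58e-13), rank 3 by rise among the 11765 genes, and by 1.75 ± 0.08 in TNFa-treated cells (adjusted p = 1.05e-12). The difference was 2.12 in batch 1 and 1.84 in batch 2. TNFa gave 0.15 ± 0.08 without BMP4 (95% interval -0.01 to 0.31, adjusted p = 0.211) and -0.03 ± 0.08 with it (-0.19 to 0.12, adjusted p = 0.84), and neither passed. The TNFa difference without BMP4 rested on single untreated libraries: it was 0.05 without untreated replicate 1 (adjusted p = 0.808) and passed at 0.24 without untreated replicate 3 (adjusted p = 0.0334). In the bulk RNA of these libraries, a change in some cells and a smaller one in all cells cannot be told apart.

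Gadd45g also followed BMP4, with a smaller change. It had 8.87, 9.45 and 9.51 in TNFa+BMP4, 7.60, 8.50 and 8.82 in TNFa, 8.92, 9.58 and 9.62 in BMP4, and 8.00, 8.72 and 8.74 in untreated libraries. The BMP4-treated groups lay above the groups without BMP4, narrowly, because batch 1 ran low in every group. BMP4 raised Gadd45g by 0.88 ± 0.09 alone, 1.84-fold (adjusted p = 6.92e-07), and by 0.97 ± 0.09 in TNFa-treated cells, 1.96-fold (adjusted p = 1.97e-07). The BMP4 difference was 0.91 in batch 1 and 0.87 in batch 2. TNFa alone gave -0.18 ± 0.09 (95% interval -0.36 to 0.01, adjusted p = 0.203), with -0.41 in batch 1 and -0.07 in batch 2, and leaving out TNFa replicate 1 gave -0.05 (adjusted p = 0.804) while leaving out TNFa replicate 3 gave -0.32, which passed (adjusted p = 0.00833). In the presence of BMP4, TNFa gave -0.09 ± 0.09 (-0.28 to 0.09, adjusted p = 0.543).

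Gadd45a had the opposite pattern, with a small rise in TNFa and none called for BMP4. Its values were 8.39, 7.69 and 7.42 in TNFa+BMP4, 7.99, 7.56 and 7.51 in TNFa, 7.59, 7.11 and 7.28 in BMP4, and 7.63, 7.16 and 7.30 in untreated libraries. The groups overlapped across batches, but within each batch every library given TNFa lay above those not given it. TNFa raised Gadd45a by 0.32 ± 0.10 alone (1.25-fold, adjusted p = 0.0311) and by 0.50 ± 0.10 with BMP4 (1.41-fold, adjusted p = 9.46e-04). BMP4 alone gave -0.04 ± 0.10 (95% interval -0.24 to 0.17, adjusted p = 0.865) and BMP4 after TNFa 0.14 ± 0.10 (-0.06 to 0.35, adjusted p = 0.391). The call for TNFa alone was lost without TNFa replicate 1 (adjusted p = 0.0558), replicate 2 (0.117) or replicate 3 (0.0779), and without untreated replicate 1 (0.164) or replicate 2 (0.0931). In TNFa+BMP4 against untreated libraries the rise was 0.46 ± 0.10, with 0.75 in batch 1 and 0.32 in batch 2.

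**Figure D1:**
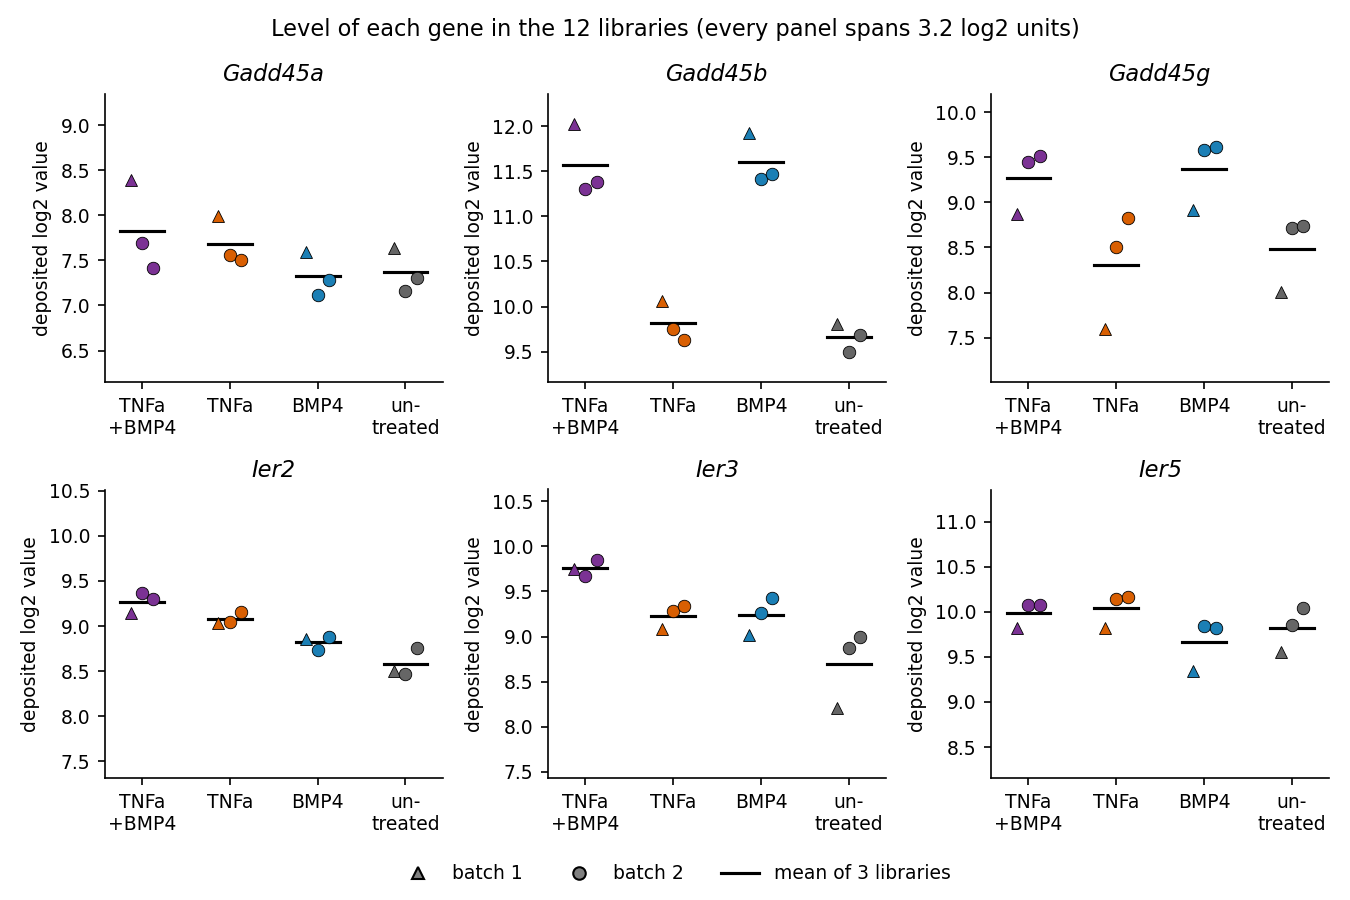
Deposited log2 value of each gene (vertical axes) in the TNFa+BMP4, TNFa, BMP4 and untreated libraries, with 1 point per library, triangles for batch 1, circles for batch 2 and bars for the mean of 3 libraries. Gadd45b sits between 11.30 and 12.02 in libraries given BMP4 and between 9.50 and 10.06 in the rest, and Ier3 is highest in TNFa+BMP4.

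Ier3 was raised by each factor alone and by both together. It had 9.75, 9.67 and 9.85 in TNFa+BMP4, 9.08, 9.28 and 9.34 in TNFa, 9.02, 9.26 and 9.43 in BMP4, and 8.21, 8.88 and 8.99 in untreated libraries. The TNFa+BMP4 libraries lay above all others, the untreated ones below all others, and the single-factor groups overlapped. The rise was 0.54 ± 0.10 with TNFa (1.45-fold, adjusted p = 5.41e-04), 0.54 ± 0.10 with BMP4 (1.46-fold, adjusted p = 8.85e-04) and 1.06 ± 0.10 with both (2.09-fold, adjusted p = 6.15e-08). TNFa and BMP4 alone differed by -0.01 ± 0.10 (95% interval -0.22 to 0.20, adjusted p = 0.976). Each factor also raised Ier3 on top of the other, TNFa by 0.52 ± 0.10 in BMP4-treated cells (adjusted p = 7.94e-04) and BMP4 by 0.52 ± 0.10 in TNFa-treated cells (adjusted p = 0.00127). The changes were larger in batch 1 than in batch 2, 0.87 and 0.37 for TNFa, 0.81 and 0.41 for BMP4, and 1.54 and 0.83 for both. Untreated replicate 1 was the lowest of the 12 libraries, and without it the TNFa rise was 0.36, the BMP4 rise 0.37 and the combined rise 0.88, all still called.

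Ier2 was raised mainly by TNFa. It had 9.15, 9.36 and 9.30 in TNFa+BMP4, 9.03, 9.05 and 9.15 in TNFa, 8.86, 8.73 and 8.88 in BMP4, and 8.50, 8.47 and 8.76 in untreated libraries. Libraries given TNFa lay above those not given it, and BMP4 and untreated libraries overlapped. TNFa raised Ier2 by 0.50 ± 0.08 alone (1.42-fold, adjusted p = 6.21e-05), with 0.53 in batch 1 and 0.49 in batch 2, and by 0.45 ± 0.08 in BMP4-treated cells (adjusted p = 2.46e-04). BMP4 alone gave a small rise of 0.25 ± 0.08 (1.19-fold, adjusted p = 0.0397), and BMP4 after TNFa gave 0.19 ± 0.08 (95% interval 0.03 to 0.35, adjusted p = 0.115), which did not pass. The call for BMP4 alone was lost in batch 2 alone (0.19, adjusted p = 0.131) and without BMP4 replicate 1 (adjusted p = 0.187) or 3 (0.118), untreated replicate 1 (0.137) or 2 (0.181), TNFa replicate 2 (0.0522) or 3 (0.051), or TNFa+BMP4 replicate 3 (0.053). Ier2 was higher in TNFa than in BMP4 libraries by 0.25 ± 0.08 (adjusted p = 0.0212), a call lost without TNFa replicate 1 (0.067), TNFa replicate 3 (0.0941) or BMP4 replicate 2 (0.128).

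Ier5 had the smallest change of the 6 genes when both factors were given. It had 9.82, 10.07 and 10.07 in TNFa+BMP4, 9.82, 10.14 and 10.17 in TNFa, 9.34, 9.84 and 9.82 in BMP4, and 9.56, 9.85 and 10.04 in untreated libraries. The groups overlapped, while within each batch TNFa libraries lay above untreated and BMP4 libraries below them. TNFa raised Ier5 by 0.23 ± 0.06 alone (1.17-fold, adjusted p = 0.0115) and by 0.32 ± 0.06 in BMP4-treated cells (1.25-fold, adjusted p = 6.66e-04). BMP4 alone gave -0.15 ± 0.06 (95% interval -0.27 to -0.02, adjusted p = 0.12), which did not pass. Ier5 was 0.38 ± 0.06 higher in TNFa than in BMP4 libraries (adjusted p = 6.61e-05). The TNFa call was lost without TNFa replicate 1 (adjusted p = 0.0558) or untreated replicate 2 (0.0731). The rise of 0.17 ± 0.06 in TNFa+BMP4 against untreated libraries (adjusted p = 0.0373) was lost without TNFa+BMP4 replicate 1 (0.212), 2 (0.0523) or 3 (0.0515), untreated replicate 1 (0.105) or 2 (0.172), or TNFa replicate 2 (0.0503), and in batch 2 alone (0.13, adjusted p = 0.134).

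**Figure D2:**
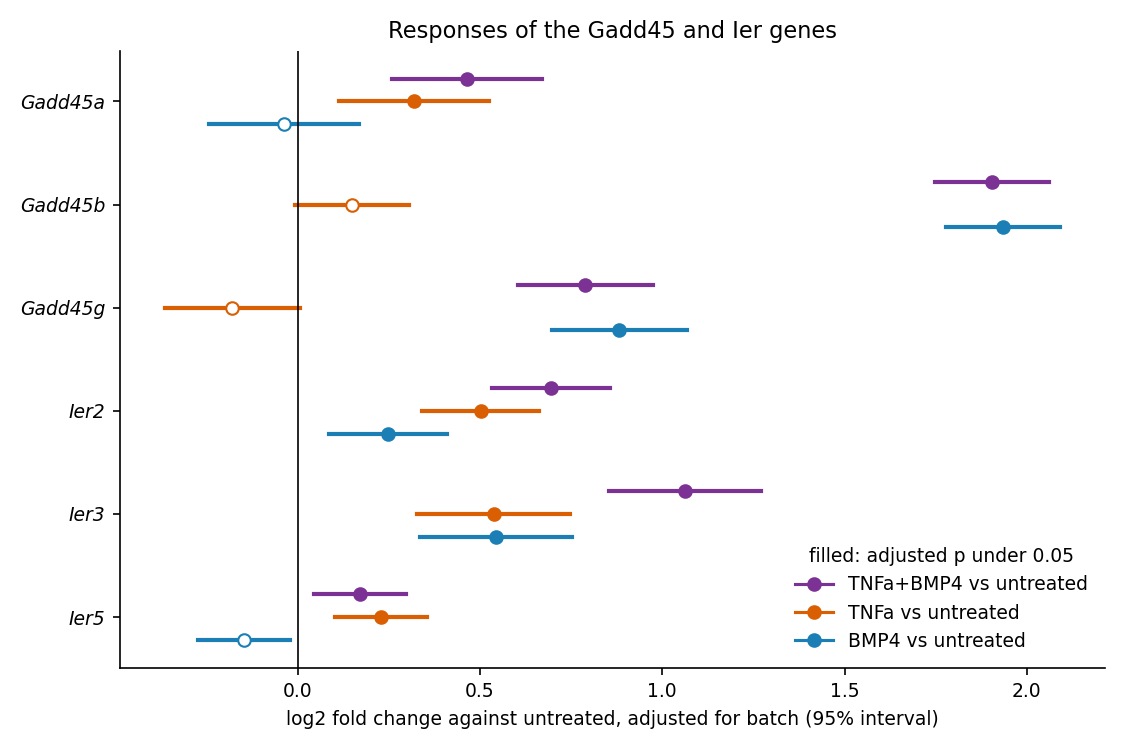
Log2 fold change against untreated cells with its 95% interval (horizontal axis) for each gene and each treatment; filled points passed an adjusted p of 0.05 and open points did not. BMP4 reaches 1.93 for Gadd45b and 0.88 for Gadd45g, while TNFa reaches 0.54 for Ier3 and 0.50 for Ier2.

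Counted over the 6 genes, both factors together raised 6 of 6, against 16.8% of all genes tested. TNFa alone raised 4 of 6 (Gadd45a, Ier2, Ier3 and Ier5), against 9.16% of genes, and BMP4 alone raised 4 of 6 (Gadd45b, Gadd45g, Ier2 and Ier3), against 6.75%. The TNFa count was 2 without TNFa replicate 1 or untreated replicate 2, and 2 to 5 over all fits that left out 1 library. Over the same fits the count was 3 to 4 for BMP4 and 5 to 6 for both factors. Ier2 for BMP4 and Ier5 for both factors were each lost in some of them. No member was called lower in these comparisons, where 14.4%, 6.32% and 5.47% of all genes were. The median change of the 6 was 0.74 with both factors, 0.27 with TNFa and 0.40 with BMP4, beside medians of 0.00, -0.01 and 0.00 over all genes tested. These comparisons share the untreated libraries.

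BMP4 added to TNFa raised 3 of 6 (Gadd45b, Gadd45g and Ier3), against 5.47% of genes. TNFa in BMP4-treated cells, compared with BMP4 alone, raised 4 of 6 (Gadd45a, Ier2, Ier3 and Ier5), against 8.78%. No member was lower in either, where 6.2% and 7.41% of genes were. In the direct comparison of TNFa with BMP4, 3 members were higher in TNFa libraries (Gadd45a, Ier2 and Ier5), against 11.5% of genes, and 2 were lower (Gadd45b by -1.79 ± 0.08 and Gadd45g by -1.06 ± 0.09), against 10.1%. For Gadd45a this difference was 0.36 ± 0.10 (adjusted p = 0.0113), lost without TNFa replicate 2 (0.0525) or BMP4 replicate 1 (0.0653). The ranges of the 3 libraries did not overlap, with the treated group higher, for 4 of 6 genes in TNFa+BMP4 against untreated, 2 of 6 in TNFa and 3 of 6 in BMP4, against 13.7%, 9.5% and 7.73% of all genes. The same held for 3 of 6 in TNFa+BMP4 against TNFa (8.03% of genes), 2 of 6 in TNFa+BMP4 against BMP4 (9.17%) and 1 of 6 in TNFa against BMP4 (10.6%), where 2 of 6 lay wholly below (9.74%).

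**Figure D3:**
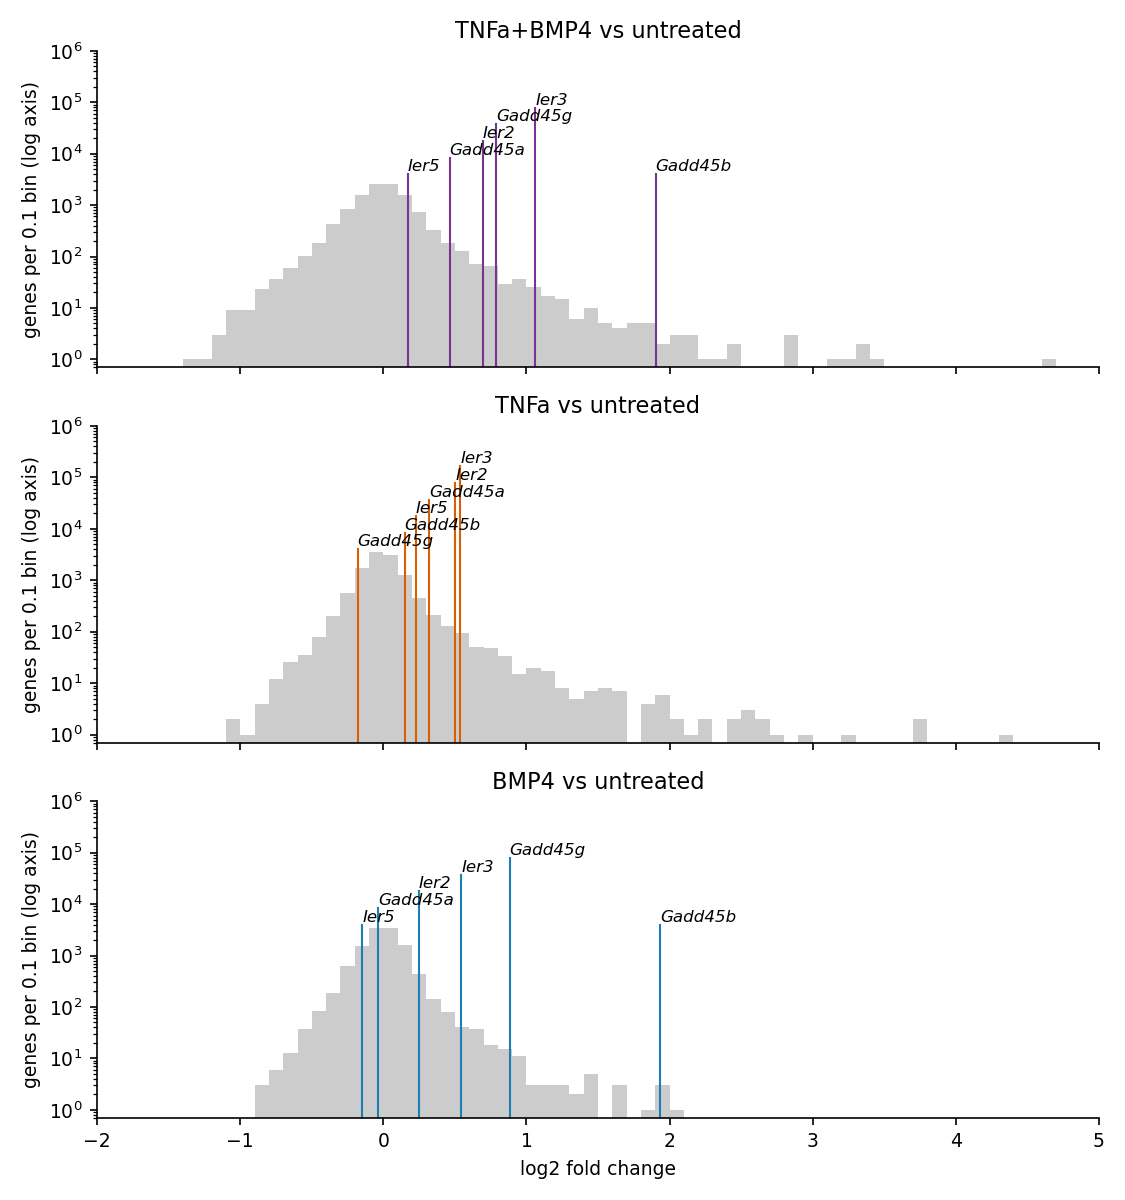
Number of tested genes per bin of 0.1 log2 fold change (grey bars, log axis) in each comparison with untreated cells, with a line at each of the 6 genes. Gadd45b stands at rank 3 from the top in BMP4 libraries, while with TNFa the 6 genes lie between -0.18 and 0.54.

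The combined response was compared with the sum of the single-factor responses through the interaction, which subtracts the change TNFa made without BMP4 from the one it made in its presence. The combined change and the sum were 1.90 and 2.08 for Gadd45b, 0.79 and 0.70 for Gadd45g, 0.46 and 0.28 for Gadd45a, 1.06 and 1.08 for Ier3, 0.69 and 0.75 for Ier2, and 0.17 and 0.08 for Ier5. For Gadd45b the interaction was -0.18 ± 0.11 (95% interval -0.40 to 0.04) and for Gadd45a 0.18 ± 0.14 (-0.11 to 0.47). For Ier3 it was -0.02 ± 0.14 (-0.32 to 0.28). limma called 0 of the 6, and 0 of 6 had an unadjusted p under 0.05, beside 0.017% of all genes called. A departure from the sum was therefore not detectable for these genes at this replication, which does not show that the responses were additive.

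**Figure D4:**
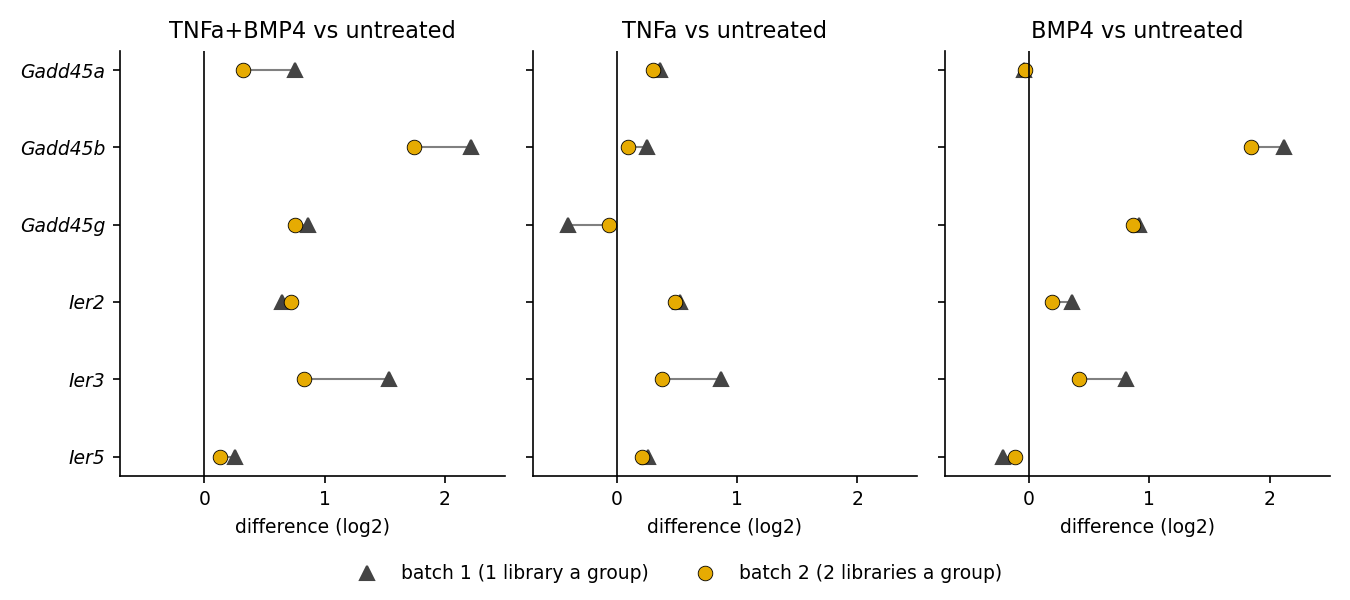
Difference between each treated group and untreated cells (horizontal axes, log2) for each gene, with triangles for batch 1, which has 1 library per group, and circles for batch 2, which has 2. The sign was the same in both batches for all 6 genes in these 3 comparisons, and the gap was widest for Ier3 given both factors, at 1.54 and 0.83.

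Levels were also compared between genes per kilobase of the counted transcript (log2 value minus log2 of the length in kb). In TNFa+BMP4 libraries the order was Gadd45b (11.23 ± 0.40, mean ± SD, n = 3), Ier3 (9.64 ± 0.09), Gadd45g (9.17 ± 0.35), Ier2 (8.67 ± 0.11), Ier5 (8.28 ± 0.15) and Gadd45a (7.55 ± 0.50). In TNFa libraries it was Gadd45b (9.48 ± 0.22), Ier3 (9.11 ± 0.13), Ier2 (8.47 ± 0.07), Ier5 (8.34 ± 0.20), Gadd45g (8.20 ± 0.64) and Gadd45a (7.40 ± 0.27). In BMP4 libraries it was Gadd45b (11.26 ± 0.28), Gadd45g (9.27 ± 0.39), Ier3 (9.12 ± 0.21), Ier2 (8.22 ± 0.08), Ier5 (7.96 ± 0.28) and Gadd45a (7.05 ± 0.24). In untreated libraries it was Gadd45b (9.33 ± 0.15), Ier3 (8.57 ± 0.42), Gadd45g (8.38 ± 0.42), Ier5 (8.11 ± 0.24), Ier2 (7.97 ± 0.16) and Gadd45a (7.08 ± 0.24). Ranges of neighbouring genes did not overlap in TNFa+BMP4 libraries. In TNFa libraries Ier2 and Ier5, Ier5 and Gadd45g, and Gadd45g and Gadd45a overlapped, and in BMP4 libraries Gadd45g and Ier3, and Ier2 and Ier5. In untreated libraries Ier3 and Gadd45g, Gadd45g and Ier5, and Ier5 and Ier2 overlapped, while Gadd45b lay above and Gadd45a below all others. Within a gene these spreads include the batch difference, which was 0.77 ± 0.07 (SE) higher in batch 2 for Gadd45g and -0.52 ± 0.07 and -0.43 ± 0.06 for Gadd45a and Gadd45b. After centring within batch, values of Gadd45b and Gadd45g over the 12 libraries had a Pearson correlation of 0.95, Ier2 and Ier3 of 0.85, Gadd45a and Ier5 of 0.83, and Gadd45b and Ier5 of -0.29; these points share libraries and treatments and are given as a description.

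The other immediate early genes were counted next, and for this and the following lists the shares over all genes tested are 16.8% higher and 14.4% lower with both factors, 9.16% and 6.32% with TNFa, and 6.75% and 5.47% with BMP4. Of 28 immediate early genes tested of 29 listed, 17 rose and 2 fell in TNFa+BMP4 (list median 0.28), 10 rose and 1 fell in TNFa (0.20), and 13 rose and 2 fell in BMP4 (0.20). Junb, an AP-1 subunit, rose by 3.22 ± 0.09 with both factors, 2.02 ± 0.09 with TNFa and 1.64 ± 0.09 with BMP4. Maff, a small Maf factor, rose by 1.64 ± 0.14 with both factors, the AP-1 subunit Fosl1 by 1.34 ± 0.11 with TNFa, and the TGF-beta-inducible repressor Klf10 by 0.81 ± 0.15 with BMP4. Ier5l, the paralogue of Ier5, was chosen after its values were seen: it rose by 0.64 ± 0.08 with BMP4, where Ier5 was not called.

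Of 12 other growth-arrest and DNA-damage genes and genes of the integrated stress response, 6 rose and 1 fell in TNFa+BMP4 (median 0.18), 4 rose in TNFa (0.15), and 1 fell in BMP4 (-0.03). The transcription factor Cebpb rose by 1.00 ± 0.15 with both factors and by 0.57 ± 0.15 with TNFa, and Ddit3 (Gadd153) by 0.44 ± 0.07 with TNFa. Atf4, which drives the stress response, rose by 0.40 ± 0.07 with both factors, and Ddit4, an mTOR inhibitor, fell by 0.48 ± 0.09 with BMP4. The BMP4 count is close to what the shares over all genes give for a list of this size. The TNFa count was 2 without TNFa replicate 1, untreated replicate 1 or untreated replicate 2.

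Of 16 genes, p53 itself and its targets, 6 rose and 2 fell in TNFa+BMP4 (median 0.12), 9 rose and 1 fell in TNFa (0.22), and 2 rose and 4 fell in BMP4 (-0.08). The p53 transcript Trp53 rose by 0.82 ± 0.05 and the kinase Plk2 by 1.21 ± 0.11 with TNFa. The antiproliferative gene Btg2, counted among the immediate early genes too, rose by 0.88 ± 0.07 with both factors and by 0.72 ± 0.07 with BMP4, while the BH3-only gene Pmaip1 fell by 0.52 ± 0.11 with BMP4. The 6 BMP4 calls were 2 without BMP4 replicate 1 or untreated replicate 1, and 3 without BMP4 replicate 2, BMP4 replicate 3 or untreated replicate 3.

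**Figure D5:**
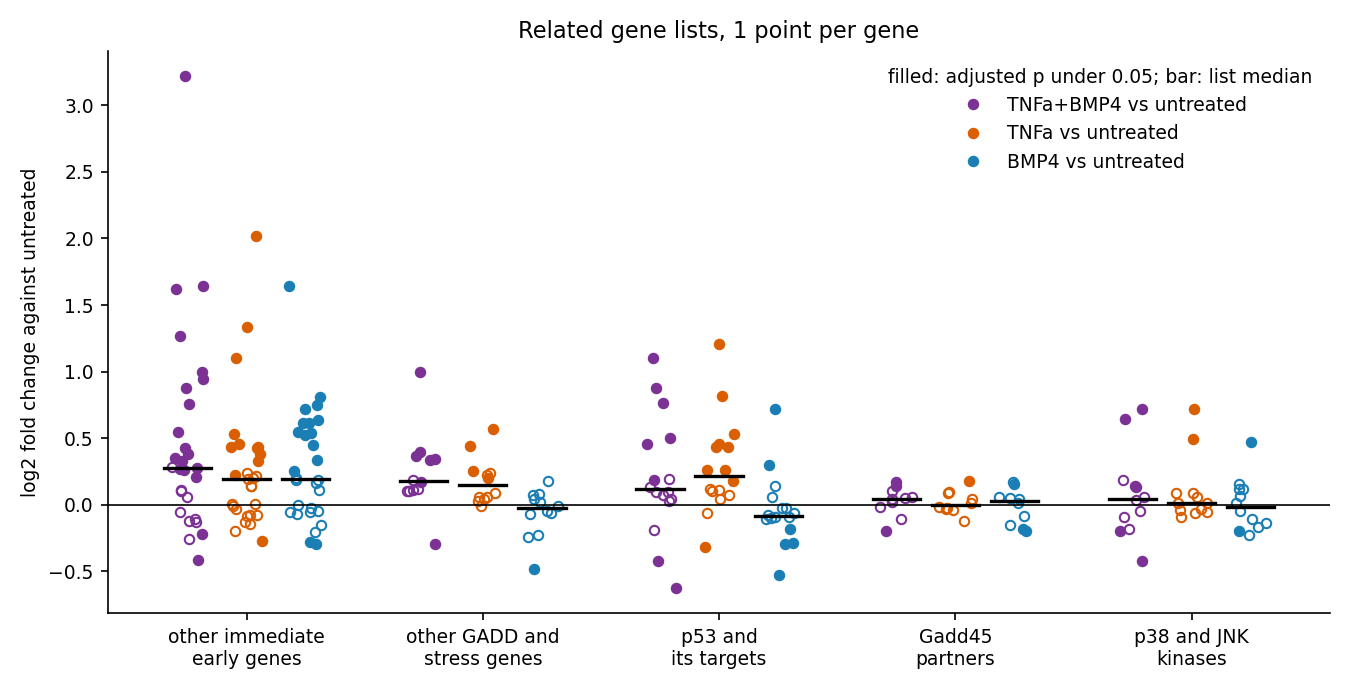
Log2 fold change against untreated cells (vertical axis) of each gene in 5 related lists, with filled points past an adjusted p of 0.05, open points for the rest and bars for list medians. Junb reaches 3.22 with both factors, and the p53 list has a median of 0.22 with TNFa and -0.08 with BMP4.

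Of 10 genes listed as Gadd45 partners, 2 rose and 1 fell in TNFa+BMP4 (median 0.05). With TNFa 1 rose (0.00), and with BMP4 1 rose and 2 fell (0.03). The gene that rose with BMP4 was Ppp2ca (0.154 ± 0.045), which also rose with both factors (0.141 ± 0.045). Whether its protein binds Gadd45 was not checked. The TNFa+BMP4 and TNFa counts are close to what the shares over all genes give for a list of this size, and all 3 counts rest on few genes. Map3k4, the kinase that Gadd45 proteins activate, fell by 0.20 ± 0.06 with BMP4, and the p21 gene Cdkn1a rose by 0.18 ± 0.05 with TNFa and fell by 0.18 ± 0.05 with BMP4. Counts in the BMP4 comparison were 0 without BMP4 replicate 2 or untreated replicate 1, and 1 without BMP4 replicate 3 or untreated replicate 3. In TNFa+BMP4 they were 0 without TNFa+BMP4 replicate 1 or untreated replicate 1 and 1 without TNFa+BMP4 replicate 2 or untreated replicate 3, and in TNFa 0 without TNFa replicate 1 or 3 or untreated replicate 1 or 2.

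Of 12 tested p38 and JNK cascade genes of 14 listed, 3 rose and 2 fell in TNFa+BMP4 (median 0.05), 2 rose in TNFa (0.01), and 1 rose and 1 fell in BMP4 (-0.01). The TNFa+BMP4, TNFa and BMP4 counts are all close to what the shares over all genes give for a list of this size. The p38 kinase Mapk11 rose by 0.72 ± 0.07 and the p38 activator Map2k3 by 0.50 ± 0.07 with TNFa, and by 0.65 ± 0.07 and 0.72 ± 0.07 with both factors. The stress kinase Map3k5 rose by 0.47 ± 0.09 with BMP4. The BMP4 count was 1 without BMP4 replicate 2 or 3, untreated replicate 1 or 3, or TNFa replicate 2, and the TNFa+BMP4 count was 3 without untreated replicate 1.

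In the authors' deposited table, BMP4 against untreated gave log2 fold changes of 2.12 for Gadd45b and 1.06 for Gadd45g, and TNFa against untreated gave 0.46 for Gadd45a, 0.60 for Ier2, 0.63 for Ier3 and 0.25 for Ier5. Against the authors' deposited table, the size of change found here was smaller in all 26 combinations of gene and pair of groups called here. The sign was the same in all 36 combinations. Of these 36, 24 passed an adjusted p of 0.05 in the authors' deposited table, and the 2 called here alone were Ier2 with BMP4 (0.191 in the authors' deposited table) and Ier5 with both factors (0.153).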

How the data were processed

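PolyA RNA of 12 MC3T3-E1 libraries was measured. Trim Galore, HISAT2, HOMER and the mm10 build are listed by the submitters' processing notes, and versions are not given in the sources used here. Per the file headers, the authors took raw read numbers over exons, kept a single entry for each gene and used batch in their pairwise tests. The authors deposited log2 values per library, whose transformation is not named, and log2 fold changes with a p-value and an adjusted p-value per pair; no counts were used. The headers number the batches the other way round from the labels, whose numbers are used here.

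limma 3.58.1 (R 4.3.3) fitted those values on the 4 groups plus batch, letting the variance follow the mean, which left 7 residual degrees of freedom. Testing took in the 11765 genes with a mean of at least 4, out of 17701 that were not listed at exactly 0 in every library (values below 0 occur), and adjusted p-values (Benjamini-Hochberg over all genes tested, within each of 7 contrasts) under 0.05 were called. Tests are two-sided. The fit was also run on simulated data with independent libraries and changes larger than the smallest called here. That run does not bear on how secure the small changes are. The members, lists and tests were chosen with earlier results of these data known. All 6 members were named, with up to 2 called genes of the largest change per list and contrast, of which a part is printed, and Id1, Smad6, Nfkbia and Tnfaip3. For each member, the 3 genes whose batch-centred values correlate best with it were named, among genes whose group means span at least 1. Alternatives were no batch term, a replicate block, 2 other scalings, no variance trend, 2 other minimum levels, batch 2 alone and leaving out each library.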

Additional observations from a re-analysis of the deposited data

How the results depend on the processing

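Calls of Gadd45b and Gadd45g for BMP4, with and without TNFa, of Ier2 for TNFa, and of Ier3 for each factor and both kept their direction and passed in all 12 fits that left out 1 library. With no batch term, 1 member was called for TNFa, 1 for BMP4, 3 for both against untreated, 1 for BMP4 after TNFa, 1 for TNFa after BMP4 and 1 for TNFa against BMP4; the estimates did not move, and their SE grew from the batch spread left in. Over the fits leaving out 1 library, the number called was 2 to 5 for TNFa, 3 to 4 for BMP4 and 5 to 6 for both. The TNFa count was 4 with all libraries and 2 without TNFa replicate 1 or untreated replicate 2. The number was 3 in every fit for BMP4 after TNFa, 4 in every fit for TNFa in BMP4-treated cells and 4 to 5 for TNFa against BMP4. The interaction called 0 in every fit. The replicate numbers of the titles do not pair the libraries beyond batch (correlations of same-number differences in batch 2 of 0.02 to 0.16), and a replicate block in place of batch left the counts at 4, 4, 6, 3, 4, 5 and 0. Apart from the fits leaving out 1 library and the fit with no batch term, Gadd45a for TNFa was also lost with no minimum level (adjusted p = 0.0779). Ier2 for BMP4 was also lost with no variance trend (0.0571) or no minimum level (0.0892). Ier2 for TNFa against BMP4 was lost with no minimum level (0.0501). Ier5 for both was also lost with quantile normalization (0.125), no variance trend (0.0581) or no minimum level (0.0633).

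Sign changes touched uncalled values only. Leaving out 1 library gave -0.1046 to 0.0234 for Gadd45a with BMP4 and -0.1417 to 0.0327 for Gadd45b with TNFa in BMP4-treated cells. It gave -0.0511 to 0.0391 for Ier3 with TNFa against BMP4. For the interaction it gave -0.0457 to 0.2233 for Gadd45g, -0.1395 to 0.0172 for Ier2 and -0.1579 to 0.1586 for Ier3. Gadd45a with BMP4 was 7e-04 after quantile normalization, and the interaction in batch 2 alone was -0.0508 for Gadd45g, 0.0382 for Ier2 and 0.0401 for Ier3. Where not stated, the cause was not tested.

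Log2 values carry no counts, so counting error per gene is not known here. With 3 libraries per group changes near 0.2 sit at the threshold, and some larger ones are not secure. Gadd45a for TNFa (0.32 ± 0.10) and for TNFa against BMP4 (0.36 ± 0.10) each lost its call in some fits leaving out 1 library.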

Other observations

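The genes whose pattern over the 12 libraries, centred within batch, was most like each member were listed among the genes whose group means span at least 1 on the log2 scale. For Gadd45b these were Snai1, a repressor of epithelial genes (Pearson r = 0.997), the inhibitory Smad gene Smad7 (0.99) and the actin regulator Enah (0.99). For Gadd45g they were the homeobox gene Dlx2, the BMP target Id3 and the TGF-beta-inducible gene Pmepa1, each at 0.98. BMP4 alone raised Dlx2 by 1.49, Id3 by 1.84 and Pmepa1 by 1.49.

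For Ier3 they were the metalloproteinase inhibitor Timp3 (0.99), the keratin Krt16 (0.98) and the AP-1 subunit Fosl2 (0.98), with changes of 0.51, 1.62 and 0.54 for TNFa and 0.58, 1.68 and 0.53 for BMP4. For Gadd45a they were Cebpb (0.94), the drug transporter Abcb1b (0.91) and Fosl1 (0.91). For Ier2 they were Cilp2 (0.95), March11 (0.94) and the kinase Camkk2 (0.94), and for Ier5 the stress-responsive gene Ndrg1 (0.97), N4bp3 (0.95) and the interleukin-15 receptor chain Il15ra (0.95). The libraries share treatments, so these values are a description of likeness.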
